A study of Homo sapiens with 4 samples.

Results

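NFE2L2, the gene of the transcription factor NRF2, and 8 of its target genes that handle thiols and NADPH were read in adherent cells and in spheroids of 2 human colorectal cancer cell lines, HCT116 and LOVO. The genes were chosen by name, with earlier results of these data known: NFE2L2, GCLC, GCLM, TXN, TXNRD1, SRXN1, PGD, ME1 and NQO1. All 9 were found among the 58735 genes of the deposited expression table, and all 9 were among the 14429 genes compared, which averaged 1 FPKM or more. FPKM counts the fragments of a gene relative to its length and to the size of the library, so levels given in it can be set side by side between genes. Not every one of the 9 is an enzyme, since NFE2L2 encodes the regulator and TXN a small redox protein.

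RNA was sequenced from 4 libraries, which hold HCT116 adherent cells, HCT116 spheroids, LOVO adherent cells and LOVO spheroids, 1 of each. Both lines are labelled wild type, and the adherent cells grew in RPMI-1640 with fetal bovine serum and without drug. The spheroids were grown on ultralow attachment dishes in a serum-free DMEM/F12 medium with B27, N2, bFGF and EGF, with oxaliplatin at 1 μg/ml by the study's methods, while the labels give a treatment of 1 mg/ml and name no drug. Growth form, medium and drug therefore changed together and cannot be told apart, and with 1 library per condition a difference between libraries has no replicate check.

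NRF2 is held at a low level by KEAP1, an adaptor that hands it to a CUL3 ubiquitin ligase for degradation. When oxidants or electrophiles modify cysteines of KEAP1, NRF2 escapes, pairs with a small MAF protein and binds antioxidant response elements near its target genes. The targets build glutathione, run the thioredoxin system, regenerate NADPH for both, and reduce quinones, and tumour cells use them against oxidative stress and against drugs that react with thiols, platinum compounds among them. NRF2 activity is set largely at the level of its protein, which was not measured in these libraries.

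The reads on genes numbered between 15483569 and 20429147 per library, and HCT116 spheroids had the fewest. The labelled tissue was checked against 10 markers of colorectal epithelium. In the HCT116 libraries 4 of the 10 in adherent cells and 3 in spheroids were below 1 FPKM, whereas 7 and 6 were below it in the libraries labelled LOVO. The summed level of the 10 markers was 1754 FPKM in HCT116 adherent cells, 1288 in HCT116 spheroids, 327 in LOVO adherent cells and 187 in LOVO spheroids. In adherent cells and spheroids labelled LOVO, CDX2 was at 0 in both (3.84 and 3.12 FPKM in HCT116), CDH1 was at 0.117 and 0.00805 (31.1 in both of HCT116), and EPCAM was at 0.93 and 1.5 (85.6 and 79.3 in HCT116). VIL1 was below 0.1 FPKM in all 4 libraries and sets no line apart. Of the keratins, KRT8 was at 189 and 81.6 FPKM in LOVO, KRT18 at 122 and 98.8 and KRT19 at 14.9 and 4.85. KRT20 was at 0.0302 and 0.0538 FPKM there (0.93 and 7.45 in HCT116). The libraries labelled LOVO thus had KRT8, KRT18 and KRT19 but little or no CDX2, CDH1, EPCAM and KRT20. They are called LOVO here only as labelled. The spheroid fold changes are therefore given for each line on its own, while 1 later fit and the profile distances use both lines. The HCT116 FPKM and fold changes do not rest on the LOVO libraries. The set of genes compared does, since the filter averages all 4 libraries, and so do the HCT116 shares over that set. The summed level of 12 markers of leukocytes, endothelium, fibroblasts, muscle and nerve was 8.13, 18.8, 22.5 and 30.9 FPKM in the same order. The fibroblast marker DCN was at 10.4 and 9.97 FPKM in the LOVO libraries and at 0 in HCT116, and the leukocyte markers PTPRC and CD3E were at or near 0 in all 4. Between adherent cells and spheroids of LOVO, the endothelial marker PECAM1 went from 0.0359 to 6.35 FPKM, the collagen gene COL3A1 from 0.811 to 5.13 and the monocyte marker CD14 from 0.148 to 1.79, and in HCT116 the collagen gene COL1A1 went from 5.51 to 15.5. The part of these marker differences in the results was not tested, and in such bulk samples fewer cells of a type and less RNA per cell cannot be told apart.

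The antioxidant response element was looked for in the promoters, since it is the sequence through which NRF2 acts. RefSeq promoters on GRCh38.p14 reach from 250 bases before to 50 bases after a transcript start, and all 9 genes matched, with 11 promoters. The core TGACNNNGC, searched on both strands, was in 5 of the 11 promoters, belonging to PGD, GCLM, ME1 and TXNRD1, against 13.3% of all 35116 promoters. The looser TGANNNNGC was in 7 of the 11, adding NFE2L2 and NQO1, against 41.8% of all. The AP-1 motif TGANTCA was in 1 of the 11, that of ME1, against 7.71% of all, and there it overlapped the element. The stretches around the core in the 4 genes are printed 5′ to 3′ along the gene, with the core in capitals, because TXNRD1 and ME1 both match it and had the lowest and the highest fold change of the 9 in LOVO spheroids. No match in GCLC, TXN and SRXN1 says only that these letters were not in this window.
TXNRD1: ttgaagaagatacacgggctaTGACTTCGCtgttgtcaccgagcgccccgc
ME1: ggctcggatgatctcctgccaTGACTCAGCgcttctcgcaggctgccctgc
GCLM: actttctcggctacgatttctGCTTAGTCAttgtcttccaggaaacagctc
PGD: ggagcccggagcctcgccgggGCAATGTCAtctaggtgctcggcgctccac

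The TXNRD1 stretch lies at chr12:104215659-104215709 on the plus strand, with the core at -99 to -91 from the start. The ME1 stretch lies at chr6:83431159-83431209 on the minus strand, with the core at -137 to -129. Both printed cores read along the gene, and neither stretch touches an exon of the GENCODE 29 annotation. Each of these promoters held a further core on the opposite strand, not printed, at -8 to 0 in TXNRD1 and at 11 to 19 in ME1. The GCLM stretch at chr1:93909435-93909485 on the minus strand has the core on the opposite strand at -34 to -26, and 22 of its 51 bases are annotated as exon of a longer GCLM transcript. The PGD stretch at chr1:10398842-10398892 on the plus strand has the core on the opposite strand at -201 to -193 and lies inside the annotated span of the gene but outside its exons. TXNRD1 held the core at a second RefSeq start too, which is not printed because that window lies in an annotated exon.

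Most of the 9 genes had lower levels in spheroids than in adherent cells, whichever the line. On the log2(FPKM + 1) scale, on which all fold changes are given and which understates those of low genes, 8 of the 9 were below 0 in HCT116 spheroids, where 53.4% of all genes compared were below 0. In LOVO spheroids 8 of the 9 were below 0 as well, against 53.5% of all, and 7 were with TPM (FPKM scaled to 1 common total per library), since PGD was then at 0.00. The same count below 0 in both lines was 8 of 9, against 35.1% of all, since ME1 was the exception in each. The median of the 9 was -0.75 in HCT116 and -0.98 in LOVO, and the median of all genes compared was -0.03 and -0.06.

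A log2 fold change below -1 was seen for 3 of the 9 in HCT116 (TXNRD1, SRXN1 and NQO1), where 3.33% of all genes passed it. In LOVO it was seen for 4 of the 9 (NFE2L2, GCLC, TXNRD1 and NQO1), against 7.85% of all. TXNRD1 and NQO1 passed it in both lines, as did 0.880% of all genes. GCLM in HCT116, at -0.96, and TXN in LOVO, at -0.98, stood just outside this limit. None of the 9 was above 1 in HCT116 (2.19% of all), and 1 of them, ME1, was above 1 in LOVO (8.57% of all). With TPM, the genes above 1 and below -1 in LOVO numbered 2267 and 972, in place of 1236 and 1133. At the study's own limit of 2, none was below -2 in HCT116 (0.506% of all) or in LOVO (0.943% of all), with SRXN1 at -1.91 in HCT116 and TXNRD1 at -1.94 in LOVO nearest to it. SRXN1 did pass -2 in HCT116 with a pseudocount of 0.1 (-2.08) or 0.01 (-2.10) and with TPM (-2.02). ME1 was the 1 gene of the 9 above 2 in LOVO (1.81% of all).

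**Figure D1:**
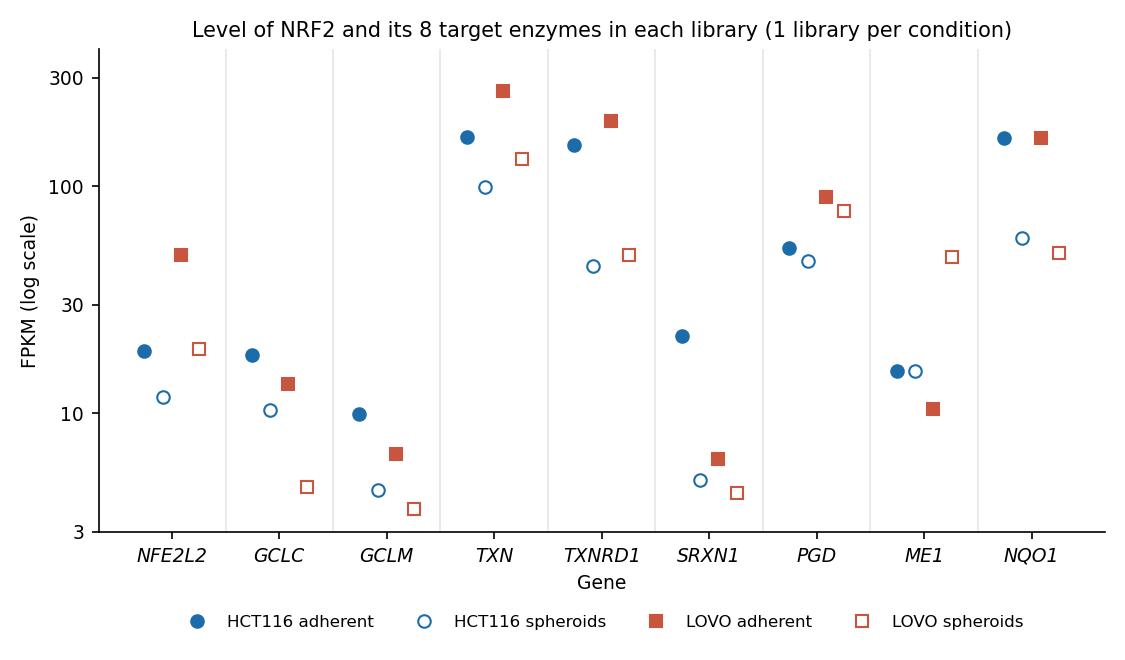
Level of NFE2L2 and its 8 target genes in each of the 4 libraries, in FPKM on a log axis, with filled symbols for adherent cells and open symbols for spheroids, circles for HCT116 and squares for LOVO; each symbol is 1 library. Open symbols lie below filled ones of the same line for every gene but ME1, which was at 10.4 FPKM in the LOVO adherent library and at 48.6 in the spheroid library.

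NFE2L2 (ENSG00000116044, chr2:177227595-177392697, minus strand) was at 18.8 FPKM in HCT116 adherent cells, 11.8 in HCT116 spheroids, 49.6 in LOVO adherent cells and 19.2 in LOVO spheroids. The gene was highest in LOVO adherent cells, and the LOVO spheroids came close to the level of the HCT116 adherent cells. Its log2 fold change in spheroids was -0.63 in HCT116 and -1.32 in LOVO. The reads behind each FPKM were recovered from the table, so a 95% exact (Clopper-Pearson) interval could be put around each ratio taken without a pseudocount. Such an interval covers counting error only and compares the 2 libraries, not the conditions. For NFE2L2 the interval was -0.78 to -0.57 in HCT116 and -1.44 to -1.30 in LOVO, so those of the lines did not overlap. Of the exonic bases of NFE2L2, 1054 of 5979 are shared with AC019080.1 on the same strand, which was listed with 72 to 134 reads, against 1185 to 5318 on NFE2L2. Another 244 bases lie opposite exons of AGPS and AC079305.1, and since the strand setting is not given in the sources used here, reads from them cannot be told apart. AGPS as a whole was listed with 1977 and 1420 reads in HCT116 adherent cells and spheroids, where NFE2L2 had 2295 and 1185. In LOVO it had 3378 and 1789, where NFE2L2 had 5318 and 2315. NFE2L2 transcripts share stretches of 50 bases or more, the longest of 355, with transcripts of 7 other genes. How shared sequence was counted may thus affect part of its reads.

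GCLC and GCLM encode the catalytic and the modifier subunit of glutamate-cysteine ligase, which makes the first and rate-limiting step of glutathione synthesis. GCLC (ENSG00000001084, chr6:53497341-53616970, minus strand) was at 18.0 FPKM in HCT116 adherent cells, 10.3 in HCT116 spheroids, 13.5 in LOVO adherent cells and 4.75 in LOVO spheroids. GCLM (ENSG00000023909, chr1:93885205-93909456, minus strand) was at 9.88, 4.60, 6.61 and 3.79 FPKM in the same order. Both subunits were lower in spheroids of each line, and the catalytic subunit was above the modifier subunit in every library. The log2 fold change of GCLC was -0.75 in HCT116 and -1.33 in LOVO, with counting intervals of the ratio from -0.89 to -0.71 and from -1.62 to -1.39. That of GCLM was -0.96 and -0.67, with intervals from -1.27 to -0.94 and from -0.98 to -0.62. By these values GCLC was further down in LOVO and GCLM further down in HCT116. The intervals of the lines overlapped for GCLM and not for GCLC, so for GCLM counting error alone leaves the order open. The ratio of GCLC to GCLM went from 1.82 to 2.24 between adherent cells and spheroids of HCT116, and from 2.04 to 1.26 in LOVO. GCLC and GCLM transcripts share stretches of 50 bases or more with transcripts of 261 and 112 other genes, so part of their reads may depend on how shared sequence was counted.

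The 3 thioredoxin system genes of the 9 had lower values in the spheroids of each line. Thioredoxin, encoded by TXN, reduces disulfides in proteins, thioredoxin reductase 1, encoded by TXNRD1, recharges it with electrons from NADPH, and sulfiredoxin, encoded by SRXN1, repairs peroxiredoxins whose cysteine has been overoxidised. TXN (ENSG00000136810, chr9:110243811-110256640, minus strand) was at 165 FPKM in HCT116 adherent cells, 98.7 in HCT116 spheroids, 261 in LOVO adherent cells and 132 in LOVO spheroids. It had the highest level of the 9 in each library. Its log2 fold change was -0.73 in HCT116 and -0.98 in LOVO, with counting intervals from -0.82 to -0.66 and from -1.05 to -0.92.

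TXNRD1 (ENSG00000198431, chr12:104215779-104350305, plus strand) was at 152 FPKM in HCT116 adherent cells, 44.5 in HCT116 spheroids, 193 in LOVO adherent cells and 49.6 in LOVO spheroids. Both spheroid libraries lay far below both adherent libraries, at 29.3% of the adherent level in HCT116 and at 25.7% of it in LOVO. Its log2 fold changes were -1.75 and -1.94, with counting intervals from -1.82 to -1.73 and from -2.0 to -1.92. Only 0.846% of the genes compared had a lower value in HCT116 and 1.03% in LOVO. With 5012 to 23230 reads per library and no stretch of 50 bases shared with another gene, TXNRD1 was the most deeply counted of the 9. GENCODE 29 lists 24 transcripts of it from 20 starts, and the gene-level table does not separate them. The ratio of TXNRD1 to TXN was 0.922 in HCT116 adherent cells and 0.451 in HCT116 spheroids, and 0.740 and 0.375 in LOVO, so the reductase was lower relative to its substrate in the spheroids of both lines.

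SRXN1 (ENSG00000271303, chr20:646615-653370, minus strand) was at 21.9 FPKM in HCT116 adherent cells, 5.10 in HCT116 spheroids, 6.30 in LOVO adherent cells and 4.46 in LOVO spheroids. The HCT116 adherent library stood alone, and the other 3 were between 4.46 and 6.30. The log2 fold change was -1.91 in HCT116 and -0.42 in LOVO, with counting intervals from -2.31 to -1.90 and from -0.75 to -0.25, which do not overlap. Of the 2698 exonic bases of SRXN1, 2292 are also exonic in AL121758.1 on the same strand, which was listed with 0 to 3 reads per library, against 231 to 1203 on SRXN1.

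**Figure D2:**
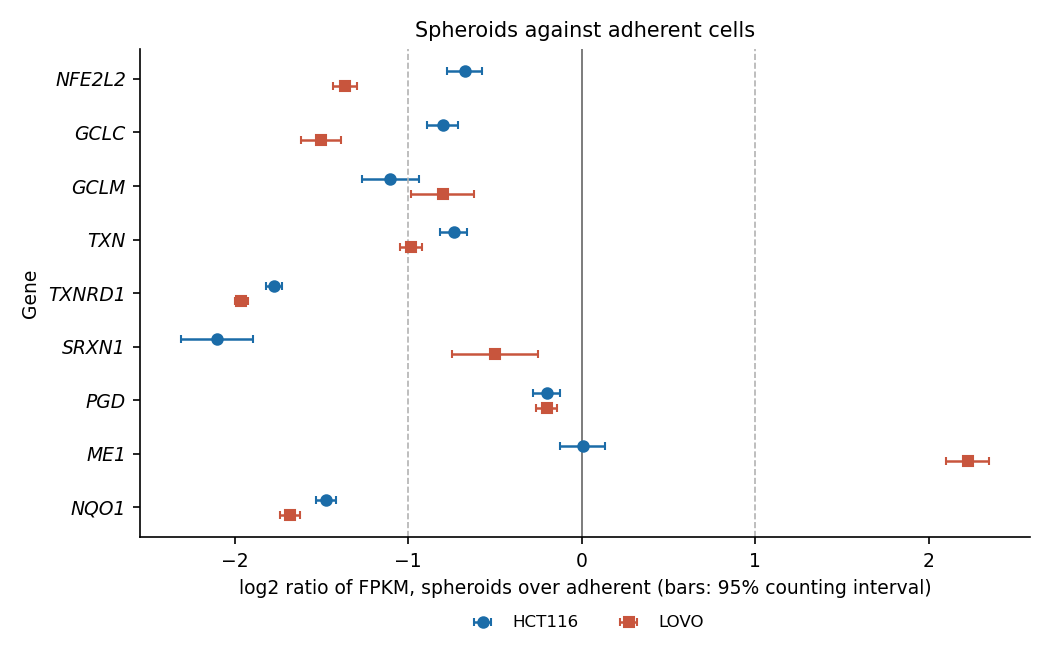
Log2 ratio of FPKM, spheroids over adherent cells, for each of the 9 genes, without a pseudocount, with circles for HCT116 and squares for LOVO, bars for the 95% exact counting interval and dashed lines at -1 and 1. TXNRD1 and NQO1 lie left of -1 in both lines, SRXN1 at -2.10 in HCT116 and -0.50 in LOVO, and ME1 lies near 0 in HCT116 and above 2 in LOVO.

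PGD and ME1, which regenerate NADPH, changed less or in the other direction. PGD was slightly lower in the spheroids of each line, and ME1 was higher in LOVO spheroids only. PGD encodes 6-phosphogluconate dehydrogenase, the second NADPH-producing enzyme of the pentose phosphate pathway, and ME1 encodes cytosolic malic enzyme, which makes NADPH while turning malate into pyruvate. PGD (ENSG00000142657, chr1:10398592-10420144, plus strand) was at 53.6 FPKM in HCT116 adherent cells, 46.6 in HCT116 spheroids, 89.4 in LOVO adherent cells and 77.7 in LOVO spheroids. The spheroid libraries were at 87.0% and 86.9% of the adherent level, and the level differed more between the lines than between growth forms. The log2 fold change was -0.20 in each line (0.00 in LOVO with TPM), with HCT116 counting bounds of -0.28 and -0.12 and LOVO bounds of -0.26 and -0.14.

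ME1 (ENSG00000065833, chr6:83210389-83431071, minus strand, 1 annotated transcript) was at 15.3 FPKM in HCT116 adherent cells, 15.3 in HCT116 spheroids, 10.4 in LOVO adherent cells and 48.6 in LOVO spheroids. In HCT116 no difference was detectable, with a log2 fold change of 0.01 (-0.02 with TMM-style scaling, which resets library sizes from trimmed read ratios) and a counting interval from -0.13 to 0.14. In LOVO the spheroid library was 4.67-fold higher, with a log2 fold change of 2.12 and an interval from 2.10 to 2.35, and 98.5% of the genes compared had a lower value. ME1 shares no stretch of 50 bases with another gene, and the LOVO values rest on 628 and 3294 reads. The ratio of ME1 to PGD was 0.285 and 0.329 in adherent cells and spheroids of HCT116, and 0.116 and 0.625 in LOVO.

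NQO1, a quinone reductase that uses NADH or NADPH and is widely read as an index of NRF2 activity, had nearly the same adherent level in both lines. NQO1 (ENSG00000181019, chr16:69706996-69726951, minus strand) was at 163 FPKM in HCT116 adherent cells, 58.9 in HCT116 spheroids, 162 in LOVO adherent cells and 50.5 in LOVO spheroids. The spheroid libraries were at 36.0% and 31.1% of the adherent level. The log2 fold change was -1.46 in HCT116 and -1.66 in LOVO, with counting intervals from -1.53 to -1.42 and from -1.74 to -1.63. Of its 3254 exonic bases, 575 lie opposite exons of AC092115.2, which was listed with 0 reads in each library. NQO1 transcripts share stretches of 50 bases or more, the longest of 358, with transcripts of 89 other genes. Part of its reads may therefore depend on how shared sequence was counted.

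The order of the levels changed with growth form. In HCT116 adherent cells TXN, NQO1 and TXNRD1 led at 165, 163 and 152 FPKM, followed by PGD at 53.6, and in HCT116 spheroids PGD, at 46.6, stood above TXNRD1, at 44.5. In LOVO spheroids NQO1, TXNRD1 and ME1 were close together at 50.5, 49.6 and 48.6 FPKM, below PGD at 77.7. With 1 library each, no spread can be set against such small gaps. The summed level of the 9 genes was 618 FPKM in HCT116 adherent cells, 296 in HCT116 spheroids, 792 in LOVO adherent cells and 391 in LOVO spheroids.

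Both lines were then put in 1 fit, in which they stood in for replicates. Limma with cell line as a covariate leaves 1 residual degree of freedom, and 0 of 14429 genes passed 0.05 after Benjamini-Hochberg adjustment, with 0.462 as the lowest limma adjusted p, while 1545 had an unadjusted p under 0.05. Of the 9 genes, 7 were lower at an unadjusted p under 0.05, against 6.43% of all genes, and none of them passed the adjustment. Without the covariate 2 of the 9, TXNRD1 and NQO1, were lower at that unadjusted limma p, as were 110 of all 14429 genes. For TXNRD1 the mean log2 fold change was -1.85 (limma standard error 0.26, adjusted p = 0.462), and for NQO1 it was -1.56 (standard error 0.27, adjusted p = 0.462), each lower in 2 of 2 lines. The means of GCLC (-1.04), NFE2L2 (-0.98), TXN (-0.86), GCLM (-0.81) and SRXN1 (-1.16) had the same limma adjusted p of 0.462. PGD had a mean of -0.20 (standard error 0.25, limma adjusted p = 0.755). ME1 had a mean of 1.06 (standard error 0.54, limma adjusted p = 0.489), which averages a value near 0 in HCT116 and a value above 2 in LOVO.

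**Figure D3:**
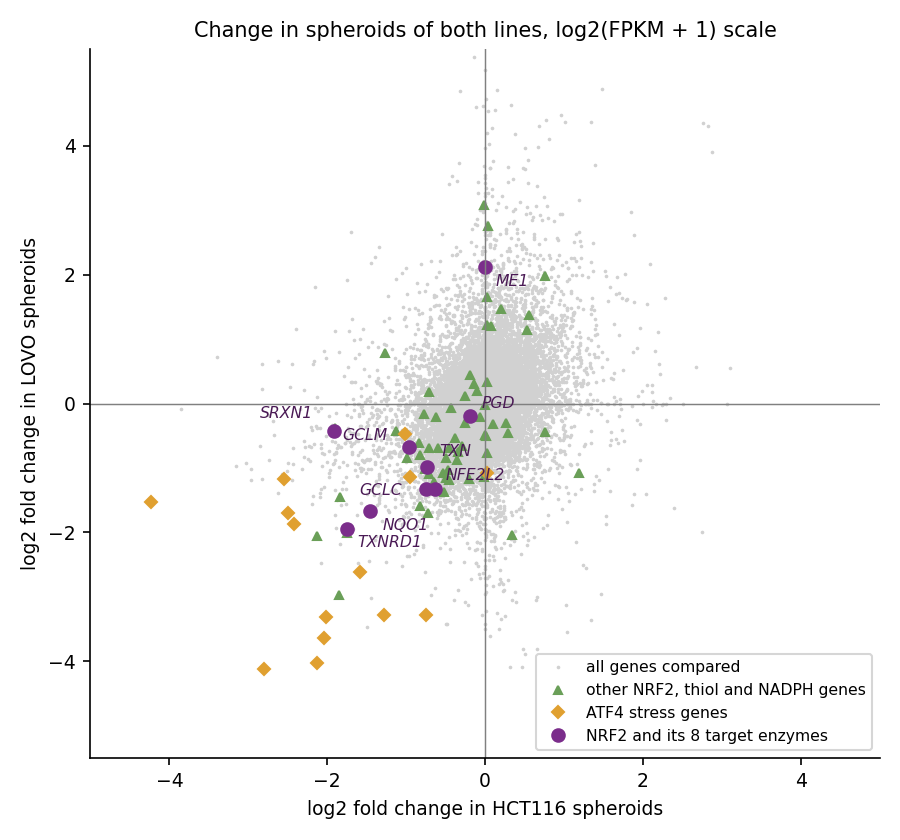
Log2 fold change in LOVO spheroids against that in HCT116 spheroids on the log2(FPKM + 1) scale, with a small grey dot for each gene compared (6 lie outside the axes), purple circles for the 9 genes, green triangles for 61 other NRF2, thiol and NADPH genes and orange diamonds for 14 ATF4 stress genes. TXNRD1 and NQO1 lie at -1.75 and -1.46 in HCT116 and at -1.94 and -1.66 in LOVO, SRXN1 is low on the HCT116 axis, and ME1 is high on the LOVO axis.

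Between the lines, at the same growth form, the 9 genes spread to both sides. These comparisons use the same 4 libraries as the spheroid contrasts and are not independent of them. In adherent cells the median of the 9 was -0.01 for LOVO minus HCT116, against 0.07 over all genes. NFE2L2 was the 1 gene of the 9 above 1 there (17.4% of all), at 1.35, and SRXN1 was the 1 below -1 (16.4% of all), at -1.65. NQO1 differed by -0.01 between the adherent libraries, with a counting interval from -0.05 to 0.03 and a value of 0.04 with TPM, so no difference was detectable. TXNRD1 and TXN were higher in LOVO adherent cells, by 0.34 and 0.66.

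In spheroids the median of the 9 was 0.15, against 0.04 over all genes. ME1, at 1.60, was the 1 gene of the 9 above 1 (17.7% of all), and none was below -1 (15.0% of all), with GCLC nearest at -0.98. SRXN1 differed by -0.16 between the spheroid libraries, its counting interval from -0.46 to 0.07 included 0, and it was 0.04 with TPM. The difference between the lines for PGD was 0.73 in adherent cells and 0.73 in spheroids (0.78 and 0.97 with TPM), while that of NFE2L2 was 1.35 in adherent cells and 0.66 in spheroids.

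**Figure D4:**
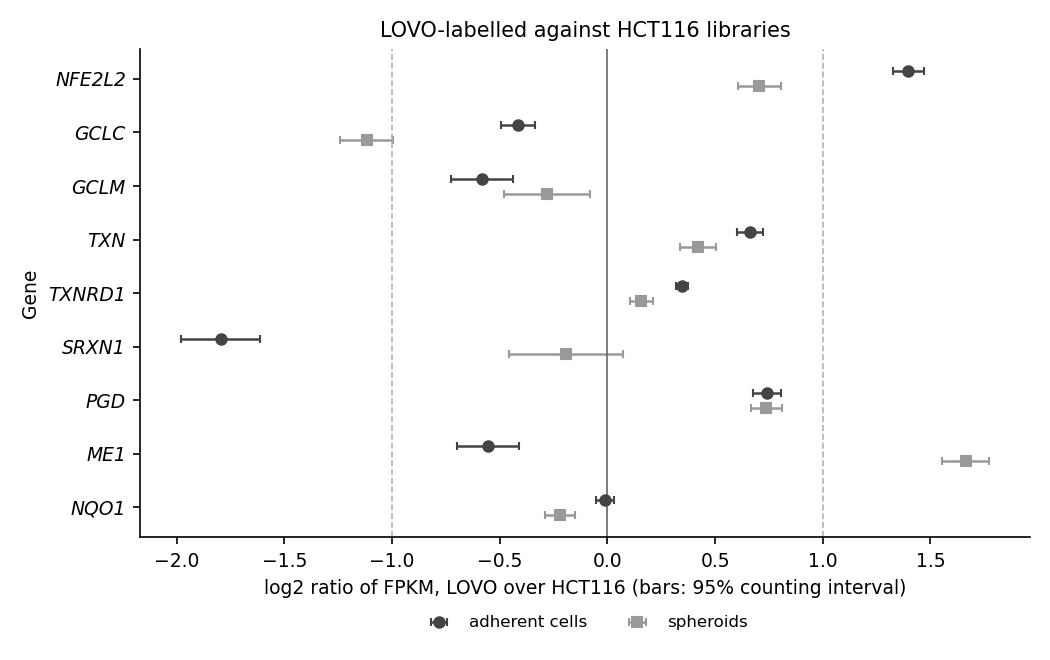
Log2 ratio of FPKM, LOVO over HCT116, for the 9 genes without a pseudocount, with dark circles for adherent cells, grey squares for spheroids, bars for the 95% exact counting interval and dashed lines at -1 and 1. NQO1 in adherent cells and SRXN1 in spheroids have intervals that include 0, whereas ME1 changes side between growth forms.

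Genes whose profile over the 4 libraries was most like that of NFE2L2 and of the 3 genes with the widest range were then sought by the Euclidean distance between centred log2(FPKM + 1) profiles. For NFE2L2 the nearest were ALDH9A1 (distance 0.072), TAF9 (0.097) and POLD2 (0.101), and 251 genes lay within 0.5. For ME1 they were PLCH2 (0.077), MIR579 (0.090) and C8G (0.124), with 55 genes within 0.5, and MIR579 rested on 2 to 16 reads per library. Outside LOVO spheroids PLCH2 was at 0.248 to 0.687 FPKM and C8G had 17 to 31 reads, so all of these were low there. For TXNRD1 they were RNU6-584P (0.196), YARS (0.272) and RPL41P5 (0.360), with 11 within 0.5. RNU6-584P had at most 6 reads in a library and RPL41P5 had 11 to 43, whereas YARS, the cytoplasmic tyrosyl-tRNA synthetase, had 1616 to 7070. For SRXN1 they were GADD45B (0.256), UBE2S (0.285) and PIMREG (0.387), with 6 within 0.5. None of the 9 genes was among these nearest genes of another, and with 4 libraries the distances are a description.

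The regulators of NRF2 stood closer to 0, by their median, than the 9 genes. Of 12 listed regulators 9 were below 0 in HCT116 (75.0%, against 53.4% of all genes) and 10 in LOVO (83.3%, against 53.5%), with medians of -0.27 and -0.42. Below -1 were 2 in HCT116 and 0 in LOVO, where 3.33% and 7.85% of all genes were. KEAP1, the adaptor that leads NRF2 to degradation, was at 13.3 and 10.5 FPKM in HCT116 adherent cells and spheroids and at 20.3 and 13.8 in LOVO, with log2 fold changes of -0.31 and -0.53. SQSTM1, an autophagy receptor that can sequester KEAP1 and is itself an NRF2 target, had -1.73 in HCT116 and -0.42 in LOVO. MAFF, a small MAF partner, had -1.36 and -0.21, MAFK, another, had -0.66 and -0.71, and NFE2L1, a factor related to NRF2, had -0.30 and -0.68.

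Other targets of NRF2 were more divided. Of 25 listed, 24 were compared, and 15 were below 0 in HCT116 and 17 in LOVO, with medians of -0.39 and -0.41. These are 62.5% and 70.8% of the list, against the 53.4% and 53.5% of all genes. The 13 below 0 in both lines are 54.2%, against 35.1% of all. Some listed genes were compared only through their LOVO level. In HCT116 adherent cells and spheroids CBR1 had 0 reads, AKR1C1 was at 0.229 and 0.258 FPKM and AKR1C2 at 0.159 and 0.332. These count as not below 0 there, while AKR1B10, at 0.703 and 0.683 FPKM, counts as below 0. The HCT116 share therefore rests partly on genes hardly expressed in that line. Below -1 were 4 in HCT116 and 5 in LOVO, against 3.33% and 7.85% of all genes. Above 1 were 0 and 5, where 2.19% and 8.57% of all genes were above 1. FTL, the ferritin light chain, which has many processed pseudogenes that could share its reads, had -1.84 in HCT116 and -1.45 in LOVO. SLC7A11, the cystine transporter that feeds glutathione synthesis, had -2.13 and -2.06. AKR1B10 and AKR1C1, aldo-keto reductases that use NADPH, had 3.09 and 2.75 in LOVO, and in HCT116, where they were below 1 FPKM, -0.02 (0.01 when centred on the median of all genes) and 0.03. AKR1C1 has near-identical paralogs, so its value is uncertain. HMOX1, which degrades heme, had -1.27 in HCT116 and 0.79 in LOVO.

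Among 12 other glutathione genes 11 were below 0 in HCT116 and 10 in LOVO, 10 of them in both, and the medians were -0.75 and -1.08. The shares were 91.7%, 83.3% and 83.3%, against 53.4%, 53.5% and 35.1% of all genes. Below -1 were 3 in HCT116 and 8 in LOVO, against 3.33% and 7.85% of all. SLC3A2, the partner chain of the cystine transporter, had -1.86 and -2.97, CHAC2, which breaks glutathione down, had -0.72 and -1.70, and GSR, which reduces oxidised glutathione with NADPH, had -0.99 and -0.85. CHAC1, a stress-induced enzyme that breaks glutathione down, had -2.80 and -4.12.

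Among 16 other genes of the thioredoxin system 13 were below 0 in HCT116 and 12 in LOVO, 10 of them in both, and the medians were -0.23 and -0.68. Among all genes 53.4%, 53.5% and 35.1% were so placed, and in this list 81.2%, 75.0% and 62.5%. Below -1 were 1 in HCT116 and 5 in LOVO, against 3.33% and 7.85% of all. SESN2, a stress-induced sestrin, had -1.59 and -2.61, PRDX3, the mitochondrial peroxiredoxin, had -0.46 and -1.03, and MSRA, a methionine sulfoxide reductase, had -0.20 and -1.17. TXNIP, which binds and blocks thioredoxin, had 1.66 in LOVO, at 66.8 FPKM in adherent cells and 213 in spheroids. Its reads in HCT116 were 1 and 2, at or under the floor of 3 reads, so no fold is given there. TXNIP still counts as not below 0 in HCT116.

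Among 18 other NADPH genes 17 were compared, and 11 were below 0 in HCT116 and 14 in LOVO, 10 of them in both, with medians of -0.43 and -0.69. That is 64.7%, 82.4% and 58.8% of the list, where all genes gave 53.4%, 53.5% and 35.1%. NNT and ME3 count as not below 0 in HCT116, though they were hardly expressed there. NNT had 2 and 3 reads in HCT116 adherent cells and spheroids, and ME3 had 13 and 12. Below -1 were 2 in HCT116 and 5 in LOVO, against 3.33% and 7.85% of all. TKT, the transketolase of the pentose phosphate pathway, had -0.58 and -1.35. MTHFD2 and MTHFD1L, mitochondrial enzymes of one-carbon metabolism, had -1.74 and -2.0, and -0.83 and -1.58. NADK2, the mitochondrial NAD kinase, had 0.76 and 1.97.

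ATF4, a factor of the amino acid and stress response, also drives SLC7A11, CHAC1 and SESN2, so 14 genes of that response were read beside the others. Of these, 13 were below 0 in HCT116 and 14 in LOVO (92.9% and 100%, against 53.4% and 53.5% of all genes). Below -1 were 11 and 13 (3.33% and 7.85% of all genes), and the medians were -2.03 and -2.24. The gene not below 0 in HCT116 was VLDLR, which had only 3 and 5 reads in adherent cells and spheroids there. DDIT3, a stress transcription factor, had -4.23 and -1.53, and PCK2, a mitochondrial enzyme, had -2.04 and -3.64. This list was drawn up knowing that several of its genes were low in these spheroids, so its counts are not independent evidence of its direction. The 9 genes and the other lists were also chosen with earlier results of these data known, so the same limit holds for their counts. Some genes stand in more than 1 list, GSR, SLC7A11, CHAC1 and SESN2 among them. The part of the ATF4 genes in the values of the 9 genes was not tested.

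**Figure D5:**
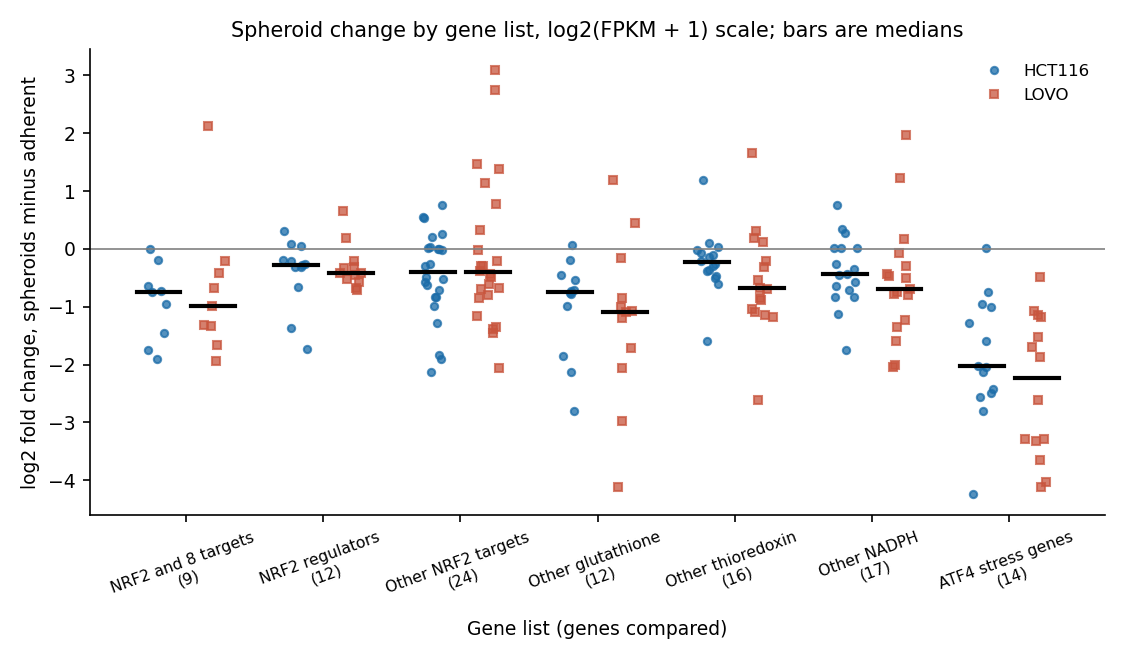
Log2 fold change in spheroids on the log2(FPKM + 1) scale for the 9 genes and for each gene list, with circles for HCT116, squares for LOVO, 1 symbol per gene compared, black bars for the medians and the number of genes in parentheses. The medians of the 9 genes, -0.75 and -0.98, lie below those of the regulators, at -0.27 and -0.42, and above those of the ATF4 stress genes, at -2.03 and -2.24.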

How the data were processed

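RNA-seq of HCT116 and LOVO cells was analysed from 4 libraries, adherent cells and spheroids of each line, 1 of each, made with a SMARTER mRNA-Seq kit. The authors deposited FPKM per gene with the gene length used. The aligner, counter and strand setting are not given in the sources used here. The submitters' processing notes name GRCm38 and mm10, but all 58735 gene IDs are human and were found in GENCODE 29 (GRCh38), 58690 of them at the same coordinates. FPKM multiplied by length gave whole reads within 0.01 for 100% of the 109621 values above 0, and 15483569 to 20429147 reads per library.

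Differences were taken on log2(FPKM + 1) for the 14429 genes that averaged 1 FPKM or more over the libraries. Exact 95% (Clopper-Pearson) intervals of read ratios cover counting error only. With 1 library per condition no test was made within a line. Limma 3.58.1 (R 4.3.3, trend, cell line as covariate) was run over both lines on the deposited FPKM with Benjamini-Hochberg adjustment. The recovered reads served for the intervals, and no count model was fitted to them. Promoters came from RefSeq (GRCh38.p14). The genes of each list named in the text were those with the largest mean of the lines' log2 fold changes in size, up to 4 per list, plus KEAP1, SLC7A11, HMOX1 and GSR (another item the rule takes in is not reported here), and the 9 genes and the lists were chosen with earlier results of these data known. Alternatives were pseudocounts of 0.1 and 0.01, TPM, TMM-style scaling, centring, other filters, protein-coding genes alone, and limma without the covariate.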

Additional observations from a re-analysis of the deposited data

Results flagged for a closer look

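HMOX1, the heme oxygenase that NRF2 can induce, was lower in HCT116 spheroids than in HCT116 adherent cells (8.41 against 21.7 FPKM, from 340 and 1065 reads) and higher in LOVO spheroids than in LOVO adherent cells (6.80 against 3.52 FPKM, from 329 and 152 reads). The log2 fold changes were -1.27 and 0.79, which differ by 2.06. It was picked out from the genes named by rule, because the libraries of the lines moved in opposite directions. That rule goes by the mean of the lines, in which opposite changes cancel. Listed genes outside it moved in opposite directions too, such as IDH1 (0.34 in HCT116, -2.05 in LOVO) and SESN3 (1.19 and -1.08). With 1 library per condition the difference between the lines was not tested for any of them.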

How the results depend on the processing

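By fold change, those of the 9 genes below 0 numbered 8 to 9 in HCT116 and 7 to 8 in LOVO, those below -1 numbered 3 to 4 in HCT116 and 4 in LOVO, and ME1 was the 1 gene above 1 in LOVO under each pseudocount, scaling and centring tried. GCLM passed -1 in HCT116 with a pseudocount of 0.1 (-1.09) or 0.01 (-1.10) and with TPM (-1.04), and SRXN1 passed -2 there with a pseudocount of 0.1 (-2.08) or 0.01 (-2.10) and with TPM (-2.02). TPM moved the median of all genes in LOVO spheroids from -0.06 to 0.10, and in the comparison of the spheroids of both lines from 0.04 to 0.26. The medians of the 6 other lists stayed below 0 in both lines with TPM, TMM-style scaling and centring. Counts over all genes moved more. In HCT116, with a pseudocount of 0.1, 760 genes were below -1, 764 above 1 and 184 below -2, in place of 480, 316 and 73. Those above 1 numbered 520 without a filter, 135 at a mean FPKM of at least 5, 613 with TPM and 164 among protein-coding genes, and 129 were below -2 with TPM. In LOVO, with a pseudocount of 0.1, 2074 genes were above 1, 748 above 2 and 274 below -2, in place of 1236, 261 and 136. At a mean FPKM of at least 5, which tests fewer genes, these were 627 above 1 and 156 above 2, and with TPM 2267 and 661. The higher share of genes past 1 was 39.7% in HCT116 and 52.2% in LOVO, against 27.3% and 42.9% at a mean FPKM of at least 5 and 49.5% and 70.0% with TPM. Limma without the cell line as covariate gave 163 genes at an unadjusted p under 0.05 in place of 1545. Lower genes among them numbered 110 without the covariate and 928 with it. Of the 9 genes, 2 were lower in place of 7 (7 with a pseudocount of 0.1 and at a mean FPKM of at least 5). In each fit 0 genes passed the adjustment. The cause of the other moves was not tested. No library could be left out, since each condition had 1. Without the libraries labelled LOVO, the HCT116 FPKM and fold changes stand as printed, with no test. The shares over the genes compared may not, since the filter averages all libraries. The labels give no replicate numbers, and limma with the cell line as covariate already compares the libraries within each line.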

Other observations

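Some genes of the same pathways, picked after their values were seen, were nearly silent in HCT116 and expressed in LOVO. CBR1, a carbonyl reductase that uses NADPH, had 0 reads in both HCT116 libraries and 22.4 and 22.0 FPKM in adherent cells and spheroids of LOVO. NNT, the mitochondrial transhydrogenase that makes NADPH, had 2 and 3 reads in HCT116 and 37.5 and 26.2 FPKM in LOVO. OSGIN1, an NRF2 target also picked after its values were seen, was at 27.4, 6.57, 4.43 and 3.19 FPKM in HCT116 adherent cells, HCT116 spheroids, LOVO adherent cells and LOVO spheroids, an order of libraries that SRXN1 shared except that its LOVO adherent library stood above its HCT116 spheroids.

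These values rest on 1 library per condition, so none carries a replicate error. Counting intervals say nothing about variation between cultures. Medium, drug and growth form changed together. The libraries labelled LOVO lacked several epithelial markers, and what that means for the LOVO values was not tested. Gene-level FPKM do not separate transcripts, and mRNA levels do not give NRF2 protein, enzyme activity, glutathione or NADPH.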
